A study of Mus musculus with 24 samples.

Results

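The genes described here are 35 genes of the oligodendrocyte lineage and of myelin, out of 25793 gene symbols in the count tables. They were taken from a list of names, and the rule used no measured value, but the list was chosen with earlier results of these data known. The list was parted by role into 24 mature oligodendrocyte and myelin genes, 5 precursor genes, 4 lineage transcription factors and 2 genes of axon-glia contact. RNA-seq counts were made from whole cerebellum (CB) and hippocampus (HC) of mice at postnatal day 14 (P14) and day 35 (P35), with 3 mice in each of 8 groups and therefore 24 libraries. 16GsoT/T mice are homozygous for 16Gso, a reciprocal translocation between chromosomes 5 and 8 with its breakpoint between *Auts2* and *Galnt17*, so every cell of the animal carries it. The controls are WT mice of the same ages, the sample labels state a C57BL/6 background for all mice, and the study states that males were used. Outside P14 CB, the WT animals' names mention the cross B6C3 instead, and the study's methods give a B6C3 background for all genotypes studied. Animal names differ between the CB and the HC samples of one age, and the labels name no treatment. Per the study's methods, the homozygotes were bred from homozygous parents, and so from other parents than the WT mice.

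Oligodendrocytes wrap axons of the central nervous system in myelin, a stack of membrane rich in lipid and in a few abundant proteins. They arise from dividing precursors, which pass through a short-lived premyelinating stage before they make myelin, and both precursors and premyelinating cells carry marker genes of their own. In rodents most of this change takes place in the first weeks after birth, and it runs earlier in the hindbrain and cerebellum than in the forebrain.

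Depth differed between the sets of libraries. Counts on genes lay between 22893603 and 40564789 per library in P14 CB, between 10572358 and 13245150 in P14 HC, between 5140843 and 7974640 in P35 CB, and between 2563968 and 4127478 in P35 HC. Even so, the lowest count of a member in any library was 22, and all 35 members passed the filter on low counts in every comparison. The share of reads that fell on genes was 64.8% to 68.1% in P14 CB and 37.6% to 42.4% elsewhere, a gap that cannot be told apart from age or region in any comparison with P14 CB. *Galnt17*, listed as *Wbscr17*, had 18.2 to 22.1 CPM (counts scaled to a common library size) in 16GsoT/T and 39.9 to 43.3 in WT of P14 CB, and it was lower without overlap in the other 3 sets too. The 7 Schwann cell markers, which would mark peripheral myelin, summed to between 63.3 and 124 CPM in all libraries, with up to 3 of them at 0. Markers of hippocampal neurons summed to between 763 and 1181 CPM in HC and between 123 and 181 in CB. Markers of neurons outside the labelled region stood apart in one library each of P14 HC and P35 HC, where the striatal list reached 777 CPM in WT N4 against 168 to 208 CPM in 16GsoT/T, and the thalamic list 583 CPM in WT N10 against 259 to 275 CPM.

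CPM values below were scaled by the TMM method of edgeR over all 24 libraries. Per kilobase of annotated exon, *Mbp*, myelin basic protein, which holds the layers of myelin together, was the most abundant member in WT of every region and age, with means of 577 ± 52.2 CPM per kb for P14 CB (SD, n = 3), 530 ± 11.1 for P35 CB, 260 ± 71.8 for P14 HC and 502 ± 80.4 for P35 HC. *Cnp*, an enzyme of the non-compact myelin cytoplasm, came next in 3 of these groups, with 193 ± 19.1 CPM per kb in P14 CB, 148 ± 7.63 in P35 CB and 110 ± 19.5 in P14 HC. In P35 HC, *Mal*, a proteolipid of myelin membrane sorting, had 160 ± 42.7 and *Cnp* 150 ± 26.4 CPM per kb, a difference within their spread. The precursor gene *Cspg4*, which codes for the NG2 proteoglycan, was the least abundant per kb in 3 of the 4 WT groups, at 1.58 ± 0.185 in P14 CB, 1.04 ± 0.131 in P35 CB and 2.18 ± 0.591 in P35 HC. In P14 HC the lowest place was taken by *Aspa*, which splits N-acetylaspartate to free acetate, at 0.68 ± 0.289 CPM per kb. For *Trf* no length was available, and it has no place in this order.

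Promoter sequence was read for the members from RefSeq (GRCm38.p6), whose table held 27 of the 35. In the 250 bases before the transcription start, either of the SOX core motifs ACAAAG and ACAATG, searched on both strands, was found in 10 of 27 members, or 37.0%, against 25.5% of 27025 promoters. ACAAAG was in 5 (*Cnp*, *Gjb1*, *Mag*, *Mobp* and *Opalin*), 18.5% against 16.5%, and ACAATG in 5 (*Enpp6*, *Ermn*, *Gal3st1*, *Olig2* and *Sirt2*), 18.5% against 11%. The E-box CAGCTG was in 2 (*Aspa* and *Gsn*), 7.41% against 12.8%. A match is a description of letters and not of a bound site. *Gpr17* had no entry. Sequences are shown for 4 genes that were called between the genotypes and hold one of these motifs, *Enpp6*, *Opalin*, *Ermn* and *Aspa*, and for *Pdgfra*, a precursor gene that fell with age in both regions and holds none. These examples were chosen after their values were seen. *Gjb1*, which was also called and holds ACAAAG, and *Lpar1*, which was called and holds none, are not shown. Each is written 5′ to 3′ on the strand of the gene, and capitals mark the motifs named above. They lie at chr8:46986637-46986886 (plus strand, *Enpp6*), chr19:41077114-41077363 (minus, *Opalin*), chr2:58052865-58053114 (minus, *Ermn*), chr11:73324638-73324887 (minus, *Aspa*) and chr5:75152001-75152250 (plus, *Pdgfra*), all directly upstream of the first exon.
Enpp6: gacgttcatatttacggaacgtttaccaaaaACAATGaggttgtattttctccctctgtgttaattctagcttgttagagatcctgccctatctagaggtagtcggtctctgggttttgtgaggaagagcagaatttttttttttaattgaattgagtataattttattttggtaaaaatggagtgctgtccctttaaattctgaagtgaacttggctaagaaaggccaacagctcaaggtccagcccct
Opalin: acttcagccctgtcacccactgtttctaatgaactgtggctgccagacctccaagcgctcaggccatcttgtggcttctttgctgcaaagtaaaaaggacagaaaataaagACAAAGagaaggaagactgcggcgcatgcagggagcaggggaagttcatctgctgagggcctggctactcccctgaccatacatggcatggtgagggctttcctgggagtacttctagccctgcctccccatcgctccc
Ermn: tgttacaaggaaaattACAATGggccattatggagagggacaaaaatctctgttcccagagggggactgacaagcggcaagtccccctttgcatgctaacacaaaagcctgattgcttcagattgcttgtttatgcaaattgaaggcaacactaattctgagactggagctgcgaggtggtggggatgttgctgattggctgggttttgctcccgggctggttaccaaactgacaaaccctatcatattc
Aspa: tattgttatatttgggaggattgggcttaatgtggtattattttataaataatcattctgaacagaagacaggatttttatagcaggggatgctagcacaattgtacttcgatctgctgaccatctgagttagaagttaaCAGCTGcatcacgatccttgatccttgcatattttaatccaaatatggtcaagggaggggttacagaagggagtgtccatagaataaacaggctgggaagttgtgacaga
Pdgfra: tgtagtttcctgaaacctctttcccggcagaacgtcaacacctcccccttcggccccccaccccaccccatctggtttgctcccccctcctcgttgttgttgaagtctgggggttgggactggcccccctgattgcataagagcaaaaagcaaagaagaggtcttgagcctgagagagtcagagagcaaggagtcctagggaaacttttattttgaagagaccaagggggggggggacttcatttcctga

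**Figure D1:**
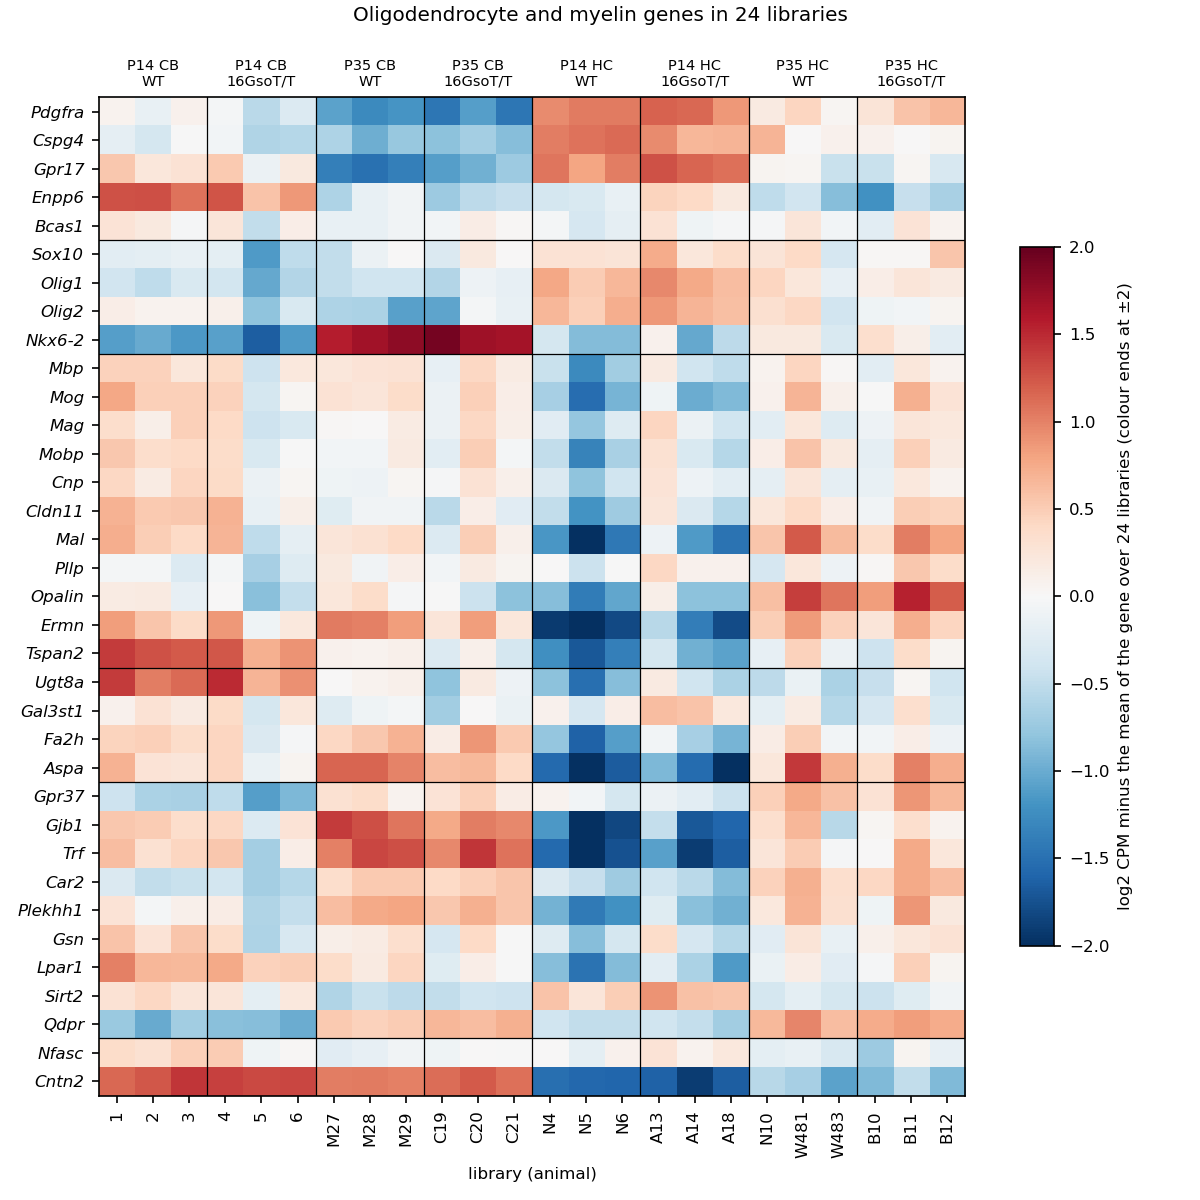
Level of the 35 members (rows, ordered by role) in the 24 libraries (columns, 3 per group), as log2 CPM minus the mean of each gene over all 24 libraries; colours end at ±2 log2 units. Most mature genes are low in P14 HC and the precursor genes *Pdgfra*, *Cspg4* and *Gpr17* are low in P35 CB; 16GsoT/T library 5 of P14 CB, WT library N5 and 16GsoT/T library A13 of P14 HC stand apart from their groups across most rows.

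Between P14 and P35 in WT, 4 of 5 precursor genes fell in CB and 3 in HC, whereas 17 of 24 mature genes rose and 1 fell in HC, and 7 rose and 7 fell in CB. In WT CB, 8 of the 35 members rose and 14 fell (edgeR quasi-likelihood test, Benjamini-Hochberg adjusted p at most 0.05, which is called here), where 30.2% of all 15784 genes tested rose and 29.4% fell. In WT HC, 18 members rose and 6 fell, where 13.1% of 15010 genes rose and 12.4% fell. The median log2 fold change of the mature genes was -0.17 in CB and 1.04 in HC, beside -0.00203 and -0.01 over all genes tested. Ages were run on different lanes, and the CB comparison joins libraries with 65.8% to 66.0% and 37.6% to 37.7% of reads on genes, so neither can be told apart from age. In these whole-tissue samples fewer cells of a type and less RNA per cell cannot be told apart either.

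Among the precursor genes, *Pdgfra*, the receptor through which platelet-derived growth factor keeps precursors dividing, had 55.2, 47.3 and 55.8 CPM in WT CB at P14 and 24.9, 21.8 and 23.0 at P35, with no overlap (log2 fold change -1.18 ± 0.13, SE, edgeR adjusted p = 1.04e-06). In WT HC it fell from 101, 107 and 107 CPM to 59.6, 70.8 and 54.1 (-0.80 ± 0.12, edgeR adjusted p = 0.000391). *Gpr17*, a receptor of premyelinating cells, fell most of the 5 in both regions, from 181, 147 and 152 CPM to 48.2, 44.4 and 48.5 in CB (-1.76 ± 0.14) and from 262, 215 and 253 to 130, 129 and 92.1 in HC (-1.07 ± 0.13). The libraries of the 2 ages did not overlap for either gene in either region. *Cspg4* fell as well, by 0.60 ± 0.17 in CB and 0.81 ± 0.15 in HC on the log2 scale. *Enpp6*, a choline phosphodiesterase of newly forming oligodendrocytes, fell in CB from 55.4, 56.1 and 49.0 CPM to 14.9, 20.8 and 21.9 (-1.47 ± 0.16), while in HC its log2 difference was -0.32 ± 0.17 (edgeR adjusted p = 0.17). *Bcas1*, of early myelinating cells, was called in neither region (-0.27 ± 0.14 in CB, 0.22 ± 0.13 in HC).

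Of the transcription factors, *Nkx6-2*, a homeodomain protein of maturing oligodendrocytes, had 6.51, 6.91 and 6.30 CPM in WT CB at P14 and 41.3, 44.8 and 48.0 at P35. This was the largest change among the 35 in CB (log2 fold change 2.77 ± 0.13, edgeR adjusted p = 4.46e-11), and in HC its difference of 0.71 ± 0.27 was not called. *Olig2*, the bHLH factor that specifies the lineage, fell in CB (-0.83 ± 0.23) and in HC (-0.48 ± 0.16). Its relative *Olig1* fell in HC (-0.50 ± 0.13) and differed by -0.03 ± 0.14 in CB. *Sox10*, an HMG-box activator of myelin genes, was called in neither region (0.01 ± 0.19 in CB and -0.16 ± 0.18 in HC). The call of *Olig2* in HC was lost without WT library N4 (-0.48), N6 (-0.43) or W483 (-0.28), and in a fit of the 6 WT libraries alone (-0.48, edgeR adjusted p = 0.069).

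Among the 11 myelin membrane proteins, 8 rose in HC and none fell, while in CB none rose and 4 fell. *Ermn*, a cytoskeletal protein of late oligodendrocytes, went from 14.1, 8.10 and 15.2 CPM to 74.7, 95.5 and 72.6 in WT HC (log2 fold change 2.68 ± 0.28, edgeR adjusted p = 2.97e-05). *Mal* rose from 111, 54.8 and 92.5 to 366, 581 and 387 CPM (2.35 ± 0.33), *Opalin*, a sialoglycoprotein of the oligodendrocyte surface, by 2.11 ± 0.28, and *Mbp* by 0.93 ± 0.20. For each of these 4 genes the lowest HC library at P35 lay above the highest at P14. In CB the same genes differed by 0.36 ± 0.20 (*Ermn*), -0.22 ± 0.23 (*Mal*), 0.14 ± 0.20 (*Opalin*) and -0.12 ± 0.16 (*Mbp*), and none was called. The 4 that fell in CB were *Tspan2*, a tetraspanin (-1.21 ± 0.12), *Cldn11*, the claudin of the radial junctions of myelin (-0.71 ± 0.17), *Mobp* (-0.40 ± 0.16) and *Cnp* (-0.38 ± 0.11). Of these, *Tspan2* (1.49 ± 0.22), *Cldn11* (1.01 ± 0.20) and *Mobp* (1.07 ± 0.23) rose in HC. The call of *Mobp* in CB was lost without WT library 1 (-0.34), 2, 3, M27 or M28 or 16GsoT/T library 6, which shares in the estimate of spread, and DESeq2 did not call it (-0.40, adjusted p = 0.11). Each region was tested alone, and a difference between the regions' age effects was not tested.

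Of the 4 enzymes of myelin lipid and acetate, *Aspa* rose in both regions, from 23.6, 17.6 and 17.2 to 32.7, 32.6 and 28.9 CPM in CB (log2 fold change 0.70 ± 0.15) and from 4.93, 1.96 and 4.58 to 17.0, 38.6 and 23.7 CPM in HC (2.77 ± 0.39). *Ugt8a*, which makes galactosylceramide, fell in CB (-1.13 ± 0.20) and was not called in HC (0.60 ± 0.22). *Fa2h*, which hydroxylates the fatty acids of myelin lipids, rose in HC (1.32 ± 0.23), and *Gal3st1*, the sulfotransferase that makes sulfatide, was called in neither region. Of the 9 other oligodendrocyte genes, 6 rose in both CB and HC, namely *Qdpr*, *Car2*, *Gpr37*, *Gjb1*, *Trf* and *Plekhh1*. *Qdpr*, a reductase that regenerates tetrahydrobiopterin, rose by 1.32 ± 0.08 in CB and 1.2 ± 0.10 in HC, and *Car2*, a carbonic anhydrase, by 0.88 ± 0.08 and 0.97 ± 0.14. *Trf*, transferrin, which carries iron, rose by 0.77 ± 0.21 in CB and 2.06 ± 0.23 in HC, and *Gjb1*, a connexin of gap junctions, by 0.80 ± 0.15 and 1.93 ± 0.38. *Sirt2*, a deacetylase, fell in both (-0.82 ± 0.10 and -0.77 ± 0.12). *Lpar1*, a receptor for lysophosphatidic acid, fell in CB (-0.45 ± 0.12) and rose in HC (0.96 ± 0.23), and *Gsn*, the actin-severing protein gelsolin, was called in neither. Of the axon-glia pair, *Cntn2*, an adhesion molecule next to the paranode that cerebellar neurons also make, fell in CB (-0.25 ± 0.07) and rose in HC (0.79 ± 0.13), and *Nfasc*, neurofascin, fell in CB (-0.53 ± 0.12). Without WT library 3 of P14 CB the change of *Cntn2* in CB was -0.16 and not called.

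**Figure D2:**
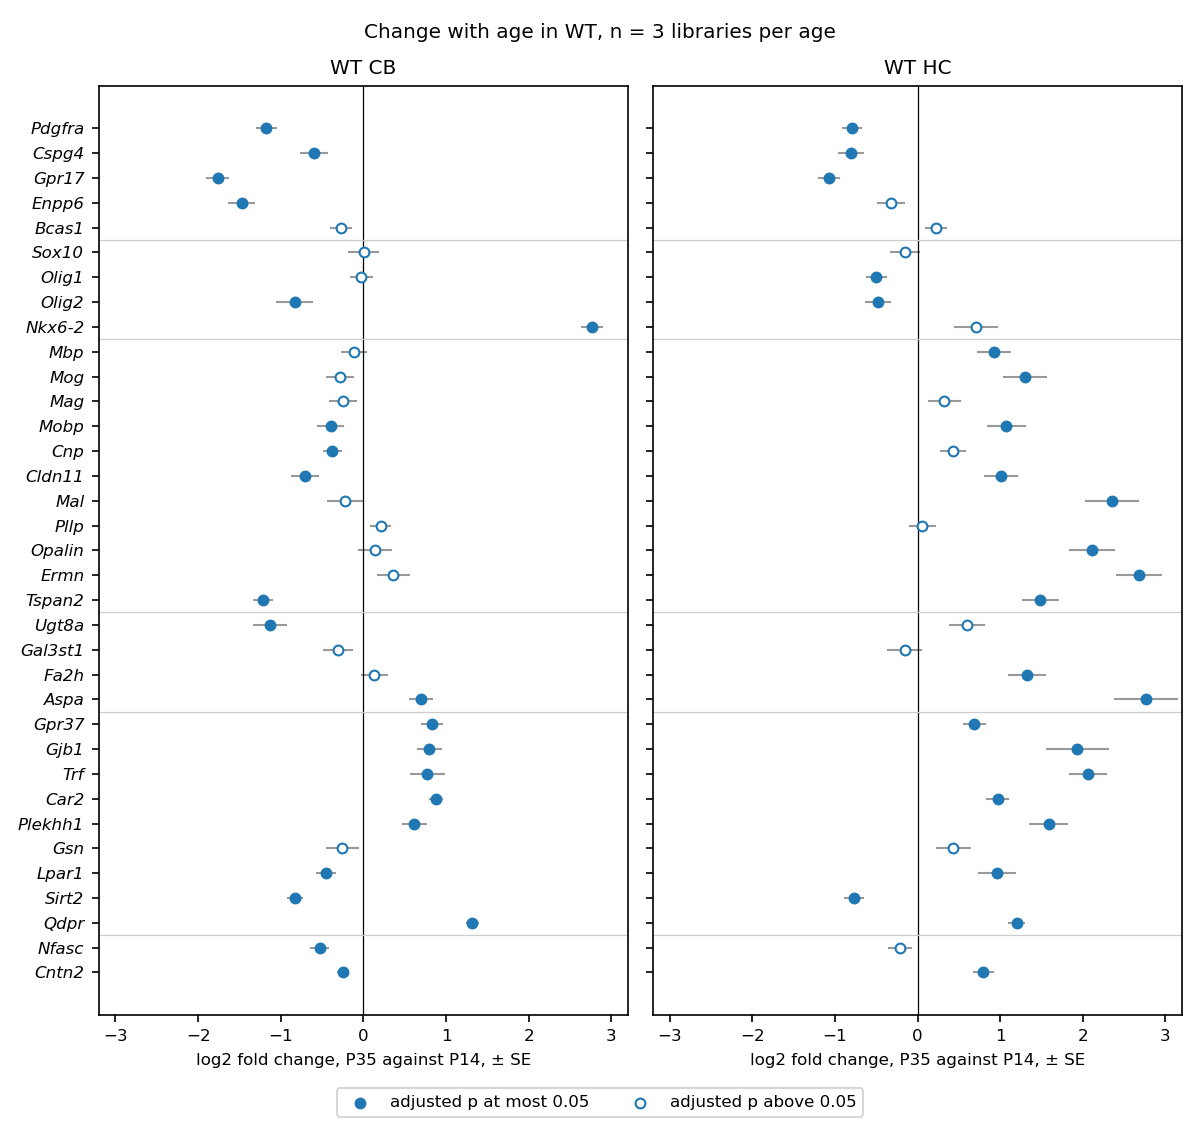
log2 fold change of the 35 members between P35 and P14 in WT CB (left) and WT HC (right), with bars of ± 1 SE and n = 3 libraries per age; filled points have an edgeR adjusted p of at most 0.05. *Pdgfra*, *Cspg4* and *Gpr17* lie left of 0 in both panels, while *Ermn*, *Mal*, *Opalin* and *Aspa* lie at 2.11 or more in HC and at 0.70 or less in CB.

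HC and CB of WT mice were compared next. At P14, 8 members were higher in HC and 21 lower, where 37.6% of 16398 genes tested were higher and 38.4% lower. The mature genes had a median log2 difference of -1.25, beside -0.01 over all genes, with 18 of 24 lower in HC. The largest differences among them were those of *Tspan2*, with 102, 73.6 and 92.6 CPM in HC and 631, 577 and 558 in CB (-2.72 ± 0.19, edgeR adjusted p = 1.27e-08), *Ermn* (-2.70 ± 0.32) and *Aspa* (-2.35 ± 0.33), while *Gpr37* (0.46 ± 0.15) and *Qdpr* (0.35 ± 0.09) were higher. None of the HC libraries reached the CB level for these 3 genes. Precursor genes were higher in HC, namely *Cspg4* (1.26 ± 0.14), *Pdgfra* (1.0 ± 0.11) and *Gpr17* (0.60 ± 0.14), as were *Olig1* (1.05 ± 0.14), *Olig2* (0.54 ± 0.17) and *Sox10* (0.46 ± 0.18, and lost when any 1 of the 6 WT libraries was left out). Without N5 *Mag* (-0.58) and without N4 *Gpr37* (0.37) were not called. *Enpp6* was the exception among the precursor genes called, with 18, 18.6 and 20.7 CPM in HC and 55.4, 56.1 and 49.0 in CB (-1.49 ± 0.15).

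At P35, 10 members were higher in WT HC than in CB and 6 lower, where 25.6% of 14363 genes tested were higher and 29% lower, and the median of the mature genes was -0.05. *Opalin* was now higher in HC (0.85 ± 0.22), as were *Mal* (0.53 ± 0.19) and *Cldn11* (0.40 ± 0.15), whereas *Gjb1* (-1.01 ± 0.20), *Trf* (-0.96 ± 0.17), *Ugt8a* (-0.46 ± 0.19) and *Lpar1* (-0.38 ± 0.14) stayed on the lower side. *Tspan2* and *Mbp*, both lower in HC at P14, differed by 0.01 ± 0.17 and -0.07 ± 0.14. *Pdgfra* (1.41 ± 0.14), *Gpr17* (1.33 ± 0.14) and *Cspg4* (1.09 ± 0.19) were higher in HC at this age too. *Cntn2* was lower in HC at both ages (-2.84 ± 0.09 and -1.76 ± 0.12), and *Nkx6-2*, not called between the regions at P14 (0.40 ± 0.24), was lower in HC at P35 (-1.62 ± 0.15). Several of these calls rested on single libraries or on the scaling. *Mal* was 0.29 without W481 and was also not called without M27, *Cldn11* was not called without N10, W481 or M27, *Gpr37* (0.36 ± 0.13) not without W481, W483 or M29, and *Qdpr* (0.27 ± 0.09) was 0.15 and not called without W481. *Ugt8a* was not called without N10, W483, M27, M28, M29, B12 or C21, nor *Lpar1* without N10, W483, M27, M29 or C21. With DESeq2 size factors in edgeR *Ugt8a* (adjusted p = 0.073) and *Lpar1* (0.054) were not called either, and DESeq2 called neither these (0.071 and 0.063) nor *Mal* (0.052). Region and sequencing lane cannot be told apart at either age.

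16GsoT/T was then compared with WT within each region and age, against the same WT libraries as above, first in P14 HC, where the members' levels were higher in 16GsoT/T for 30 of 35 genes and only *Enpp6* passed the test. *Enpp6* had 31.3, 30.3 and 26.3 CPM in the 16GsoT/T libraries A13, A14 and A18 and 18, 18.6 and 20.7 in the WT libraries N4, N5 and N6. Every 16GsoT/T value lay above every WT value (log2 fold change 0.61 ± 0.10, edgeR adjusted p = 0.0421). Over all 15227 genes tested, 0.814% were called. The call was lost without A13 (log2 fold change 0.55, edgeR adjusted p = 0.136), A14 (0.59), N4 (0.57) or N5 (0.59), with a fold change of at least 0.55 in each. With all 12 P14 libraries in one fit the adjusted p was 0.059. The 3 16GsoT/T libraries ran on another sequencing lane than the 3 WT libraries, and in this set neither can be told apart from the other.

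The other precursor genes of P14 HC were not called. *Gpr17* had 302, 280 and 270 CPM in 16GsoT/T and 262, 215 and 253 in WT, with no overlap (0.22 ± 0.09, edgeR adjusted p = 0.24). *Cspg4* lay the other way without overlap, with 27.4, 22.7 and 23.0 CPM against 29.2, 30.4 and 31.4 (-0.32 ± 0.10, edgeR adjusted p = 0.14). *Pdgfra*, with 119, 116 and 96.1 CPM against 101, 107 and 107, overlapped between the genotypes.

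All 11 membrane protein genes and all 4 lipid and acetate enzymes had a higher mean in 16GsoT/T P14 HC, and none was called. *Mbp* had 4193, 2820 and 2600 CPM in 16GsoT/T and 2732, 1539 and 2294 in WT, which overlap (log2 fold change 0.55 ± 0.23, edgeR adjusted p = 0.26). *Mal* had 232, 113 and 89.4 CPM against 111, 54.8 and 92.5, also with overlap (0.75 ± 0.36). *Ermn* had 36.0, 20.2 and 15.24 CPM against 14.1, 8.10 and 15.19, where the lowest 16GsoT/T value is barely above the highest WT value (0.93 ± 0.33, edgeR adjusted p = 0.2). *Ugt8a* had 186, 124 and 106 CPM against 93.0, 57.4 and 90.7 (0.78 ± 0.23, edgeR adjusted p = 0.14), and *Tspan2* 188, 123 and 113 against 102, 73.6 and 92.6 (0.66 ± 0.19, edgeR adjusted p = 0.14), both with no overlap. At an unadjusted p under 0.05, 15 members were higher and 1 lower, where 17.5% of all genes passed in either direction. In 9 members every 16GsoT/T library lay above every WT library and in 2 (*Cspg4* and *Cntn2*) below, where 12.8% of all genes tested lay above and 10.8% below.

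The values of P14 HC differed between libraries of one genotype as well. The median over the 24 mature genes of log2 CPM relative to the WT mean was 0.92 in A13, 0.36 in A14 and 0.19 in A18, against 0.21 in N4, -0.41 in N5 and 0.07 in N6. A13 was therefore the highest and N5 the lowest, while A18 lay below N4. The median log2 fold change of the mature genes was 0.49, beside 0.00 over all genes tested, and 0.21 without A13. Without A13 the signs of *Aspa*, *Pdgfra*, *Olig2* and *Nkx6-2* turned, each to within 0.1 of 0. Ependymal markers were also higher in 16GsoT/T, with sums of 47.8 to 49.1 CPM over 6 genes against 24.7 to 35.3 in WT, and 5 of 5 tested had a higher mean with 1 called. Their part in the values of the members was not tested. Choroid plexus markers, with 10 of 10 higher and none called, summed to between 95.4 and 1822 CPM in 16GsoT/T and between 112 and 923 in WT. Astrocyte markers summed to 5487 to 5885 CPM in 16GsoT/T and 5813 to 6903 in WT, and microglia markers to 434 to 540 and 382 to 530.

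**Figure D3:**
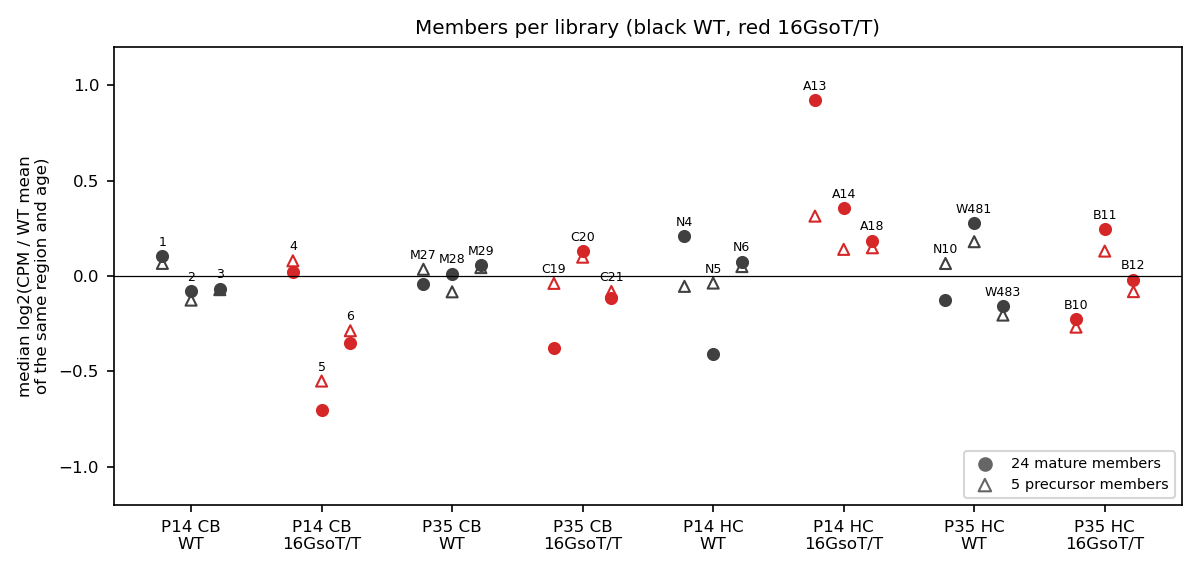
Median over the 24 mature members (filled circles) and the 5 precursor members (open triangles) of log2 CPM relative to the WT mean of the same region and age, for each of the 24 libraries, black for WT and red for 16GsoT/T. Among mature members A13 reaches 0.92 and 16GsoT/T library 5 of P14 CB falls to -0.70, while the other 16GsoT/T libraries of these sets lie between -0.35 and 0.36.

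In P14 CB the differences had the opposite sign, and none of the 35 members was called by edgeR's quasi-likelihood test, by DESeq2 or by the classic exact test of edgeR. Over all genes, 0.506% of 15993 were called. All 24 mature and 5 precursor genes had a lower mean in 16GsoT/T, with medians of -0.30 and -0.21 on the log2 scale, beside 0.00 over all genes. At an unadjusted p under 0.05, 8 members were lower and 0 higher, where 8.89% of all genes passed. *Mog*, an immunoglobulin-domain protein of the outermost myelin surface, had 142, 80.2 and 105 CPM in 16GsoT/T libraries 4, 5 and 6 and 175, 143 and 144 in WT libraries 1, 2 and 3 (-0.50 ± 0.17, edgeR adjusted p = 0.4). It was the only member in which the genotypes did not overlap, where 6.66% of all genes lay wholly above and 7.05% wholly below WT. *Gsn* had the largest difference, with 162, 82.6 and 102 CPM against 187, 152 and 186 (-0.60 ± 0.21, edgeR adjusted p = 0.38). *Mbp* had 4839, 2798 and 4276 CPM against 5085, 5117 and 4341, with overlap.

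The 3 16GsoT/T libraries of P14 CB did not lie together. The median of the mature genes relative to the WT mean was 0.02 in library 4, -0.70 in library 5 and -0.35 in library 6, with WT libraries between -0.08 and 0.10. Library 5 had the lowest mature median of all P14 CB libraries, with 0 of 24 mature genes above the WT mean. Without library 4, 9 members were called, all lower, namely *Mog*, *Mag*, *Mobp*, *Cldn11*, *Mal*, *Tspan2*, *Fa2h*, *Plekhh1* and *Gsn*, where 1.12% of all genes were called in that fit. Without library 5 the median of the mature genes was -0.14, no member was called, and *Gpr17*, *Bcas1*, *Ugt8a* and *Gal3st1* turned to log2 fold changes between 0.02 and 0.12. Endothelial and mural markers summed to 306 to 355 CPM in 16GsoT/T and 302 to 333 in WT of this set, with overlap. Sums of Purkinje cell markers were lower without overlap (5256 to 5687 against 5972 to 6688 CPM), with 7 of 7 means lower and none called. Schwann cell (64.9 to 68.6 against 69.6 to 72.9) and striatal markers (205 to 233 against 247 to 282) were also lower without overlap. Granule cell markers overlapped (5007 to 5457 against 4394 to 5225), with 8 of 8 means higher and none called. The part of these markers was not tested.

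**Figure D4:**
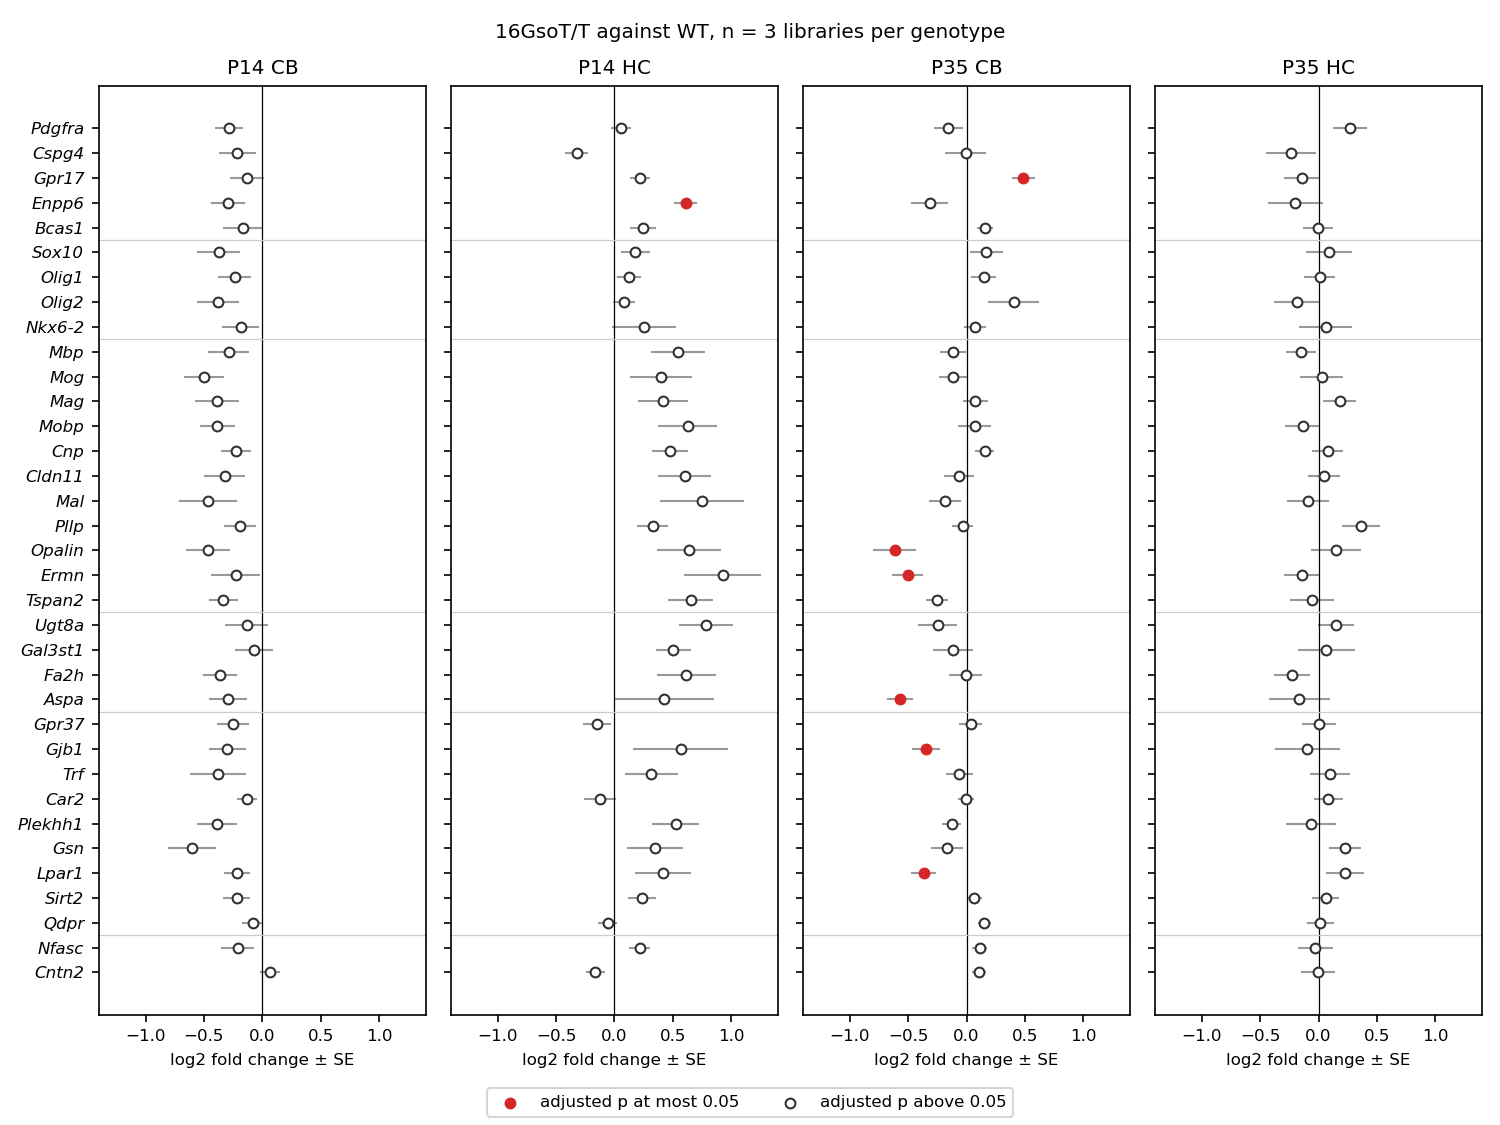
log2 fold change of the 35 members in 16GsoT/T against WT in the 4 sets, with bars of ± 1 SE and n = 3 libraries per genotype; filled points have an edgeR adjusted p of at most 0.05. At P14 most points lie left of 0 in CB and right of 0 in HC; the filled points are *Enpp6* in P14 HC, and *Gpr17* (right of 0), *Opalin*, *Ermn*, *Aspa*, *Gjb1* and *Lpar1* (left of 0) in P35 CB.

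Whether the genotype difference itself differed between the regions at P14 was tested with the interaction over 12 libraries. In P14 HC the genotypes ran on different lanes, while all P14 CB libraries carry the same lane name. A lane effect in HC can therefore not be told apart from this interaction. All 24 mature genes had a more positive difference in HC than in CB, with a median of 0.85 on the log2 scale, beside 0.00 over all genes tested. None was called by edgeR, as 0% of the 16398 genes were. At an unadjusted p under 0.05, 22 members were positive and 0 negative, where 9.2% of all genes passed. *Mal* had the largest value (1.21 ± 0.50, edgeR adjusted p = 0.48), followed by *Ermn* (1.16 ± 0.44). *Enpp6* (0.91 ± 0.20, edgeR adjusted p = 0.18) was the one member that DESeq2 called, and the one called by edgeR without 16GsoT/T library 4 of P14 CB. The libraries that stand apart are 16GsoT/T library 5 of P14 CB, and 16GsoT/T A13 and WT N5 of P14 HC. Each of them enters this contrast with the sign that makes it larger.

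In P35 CB, 1 member was higher in 16GsoT/T and 5 were lower, out of 35. Over all genes, 35.3% of 14004 were called, 17.4% higher and 18% lower, so the share of members called was below that of all genes. *Gpr17* had 58.5, 64.6 and 75.8 CPM in 16GsoT/T libraries C19, C20 and C21 and 48.2, 44.4 and 48.5 in WT libraries M27, M28 and M29, with no overlap (log2 fold change 0.49 ± 0.10, edgeR adjusted p = 0.0025). It was called whichever library was left out, with fold changes between 0.38 and 0.58. Of the other precursor genes, *Bcas1* was higher without overlap but not called, with 172, 198 and 181 CPM against 161, 160 and 170 (0.16 ± 0.07, edgeR adjusted p = 0.088). *Enpp6* had 13.8, 16.0 and 16.7 CPM against 14.9, 20.8 and 21.9 (-0.32 ± 0.16), and *Pdgfra* 19.2, 24.4 and 19.2 against 24.9, 21.8 and 23.0 (-0.16 ± 0.13), both with overlap. All 4 transcription factors had a higher mean and none was called, the largest difference being that of *Olig2* (0.41 ± 0.22, edgeR adjusted p = 0.17).

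The 5 lower members were mature genes. *Aspa* had 22.3, 22.7 and 19.2 CPM in 16GsoT/T and 32.7, 32.6 and 28.9 in WT, with no overlap (log2 fold change -0.57 ± 0.11, edgeR adjusted p = 0.0017). *Aspa* was called whichever library was left out, between -0.62 and -0.50. *Ermn* had 62.8, 94.4 and 62.1 CPM against 109, 106 and 94.3, where C20 lies just above M29 (-0.51 ± 0.13, edgeR adjusted p = 0.011). *Opalin* had 14.2, 10.6 and 8.04 CPM against 16.7, 18.3 and 14.1, where C19 overlaps with M29 (-0.62 ± 0.19, edgeR adjusted p = 0.022). *Gjb1* had 18.2, 21.9 and 21 CPM against 28.2, 26.2 and 22.5 (-0.35 ± 0.12, edgeR adjusted p = 0.043), and *Lpar1* 36.7, 47.7 and 43.1 against 56.3, 49.4 and 58.7 (-0.37 ± 0.11, edgeR adjusted p = 0.017), both with no overlap. In all, 4 members lay wholly above WT (*Gpr17*, *Bcas1*, *Qdpr* and *Cntn2*) and 3 wholly below (*Aspa*, *Gjb1* and *Lpar1*), where 24.8% of all genes lay above and 22.8% below.

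The calls of the other 4 lower genes depended on single libraries, and those of 3 of them on the fit as well. *Ermn* was not called without C21 or M28 (log2 fold change between -0.74 and -0.40 over the 6 fits), *Opalin* not without C20, C21, M27 or M28 (between -0.82 and -0.43), *Gjb1* not without C19, C21, M27 or M28 (between -0.42 and -0.27), and *Lpar1* not without C19, M27 or M29 (between -0.46 and -0.27). With all 12 P35 libraries in one fit *Gjb1* (adjusted p = 0.17), *Opalin* (0.058) and *Lpar1* (0.052) were not called by edgeR. DESeq2 did not call *Gjb1* (adjusted p = 0.12) and called *Tspan2* in its place. Without C20, the 16GsoT/T library with the highest mature genes, 12 members were called, 2 higher and 10 lower, the lower ones with *Mbp*, *Mog* and *Mal* among them, where 32.1% of all genes were. Without C19, the 16GsoT/T library with the lowest mature genes, 8 were called, of which 5 were higher (*Gpr17*, *Bcas1*, *Olig1*, *Olig2* and *Cnp*) and 3 lower, where 16.8% of all genes were higher and 16.4% lower. Without C21 or M28 3 were called, where 27.4% and 27% of all genes were. The mature genes had a median of -0.11, beside -0.00399 over all genes, and the abundant genes *Mbp* (-0.12 ± 0.11), *Mobp* (0.07 ± 0.14), *Mag* (0.08 ± 0.11) and *Cnp* (0.16 ± 0.08) lay on both sides of 0.

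Other properties moved with genotype in P35 CB. The share of reads on genes in WT was 37.7% ± 0.0648 (SD, n = 3) and that in 16GsoT/T 42.3% ± 0.0563. The 9 pan-neuronal markers in the tables summed to 6378 to 6511 CPM in 16GsoT/T and 4162 to 4564 in WT, with 4 called higher. The 11 endothelial and mural markers summed to 138 to 147 CPM against 275 to 301, with 11 called lower, and of 7 markers of leptomeningeal fibroblasts 5 were called lower. *Cspg4* and *Pdgfra* are also made by pericytes and fibroblasts, respectively. Cerebellar granule cell markers summed to 5701 to 6038 CPM against 4838 to 5338, with 4 called higher and 1 lower. The sums of astrocyte markers (5696 to 6324 against 5551 to 6041 CPM) and microglia markers (140 to 150 against 140 to 153) overlapped between the genotypes. Of the astrocyte markers 2 were called higher and 2 lower, and of the microglia markers 1 was called lower. The part of these differences in the values of the members was not tested.

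**Figure D5:**
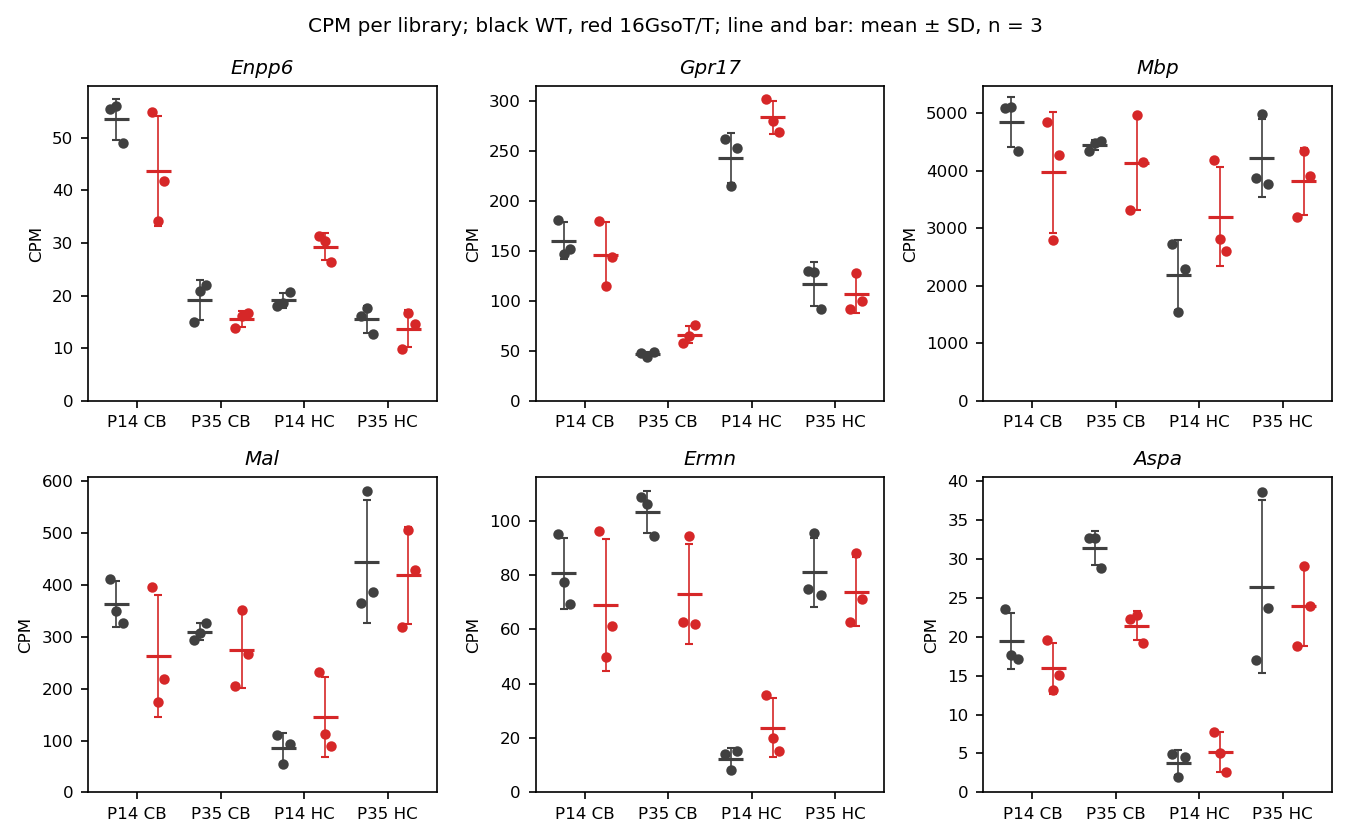
CPM of *Enpp6*, *Gpr17*, *Mbp*, *Mal*, *Ermn* and *Aspa* in each library of the 4 sets, black for WT and red for 16GsoT/T, with lines and bars for the mean ± SD (n = 3). In P14 HC *Enpp6* (26.3 to 31.3 against 18 to 20.7 CPM), *Gpr17* and, barely, *Ermn* separate the genotypes. In P35 CB *Gpr17* and *Aspa* do so, whereas *Mbp* and *Mal* overlap in all 4 sets.

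In P35 HC none of the 35 members was called by edgeR's quasi-likelihood test, DESeq2 or the classic exact test, and 0.135% of 13343 genes were. The mature genes had a median of 0.04 and the precursor genes of -0.14, beside -0.01 over all genes. At an unadjusted p under 0.05, 1 member was higher (*Pllp*, plasmolipin, with 58.6, 84.0 and 75.1 CPM against 46.0, 67.9 and 54.1, 0.36 ± 0.17), where 8.84% of all genes passed. No member separated the genotypes, while 5.82% of all genes lay wholly above and 6.93% wholly below WT. *Mbp* had 3191, 4340 and 3911 CPM in B10, B11 and B12, which are 16GsoT/T, and 3879, 4996 and 3778 in WT libraries N10, W481 and W483 (-0.15 ± 0.13), and *Enpp6* 9.89, 16.7 and 14.6 against 16.2, 17.6 and 12.7 (-0.20 ± 0.23). The SE of the members lay between 0.12 and 0.28 here, with a median of 0.15, beside medians of 0.16 in P14 CB, 0.19 in P14 HC and 0.11 in P35 CB. W481 and W483 carried another index design than the other 4 libraries.

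The change of the genotype difference with age was called in CB for one member, where 18.6% of 15784 genes were called. This was *Gpr17*, with a difference of -0.13 ± 0.15 at P14 and 0.49 ± 0.10 at P35 (interaction 0.61 ± 0.20, edgeR adjusted p = 0.0405). At P14 its values overlapped, with 181, 115 and 144 CPM in 16GsoT/T and 181, 147 and 152 in WT. Of 12 fits without 1 library, 3 called the interaction. Without 16GsoT/T library 4 of P14 CB it was 0.81 and 14 members were called, where 22.2% of all genes were, and without library 5 it was 0.47 (edgeR adjusted p = 0.0654). In HC no member was called by edgeR or DESeq2, and 0.00666% of 15010 genes were by edgeR. The lane difference between the genotypes of P14 HC cannot be told apart from this HC contrast. There 6 members were negative and 0 positive at an unadjusted p under 0.05, where 11.4% of all genes passed in either direction, among them *Enpp6* (-0.82 ± 0.24, edgeR adjusted p = 0.22) and *Ermn* (-1.07 ± 0.38). Between the regions at P35, no member's genotype difference was called to differ by edgeR, where 9.61% of 14363 genes were, and 3 members were positive and 1 negative at an unadjusted p under 0.05, where 26% of all genes passed. The negative one was *Gpr17* (-0.63 ± 0.20, edgeR adjusted p = 0.056), which DESeq2 did call.

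Many mature genes varied together across the libraries of a set, though not all. Ranked over the 6 libraries of P14 HC, the mature genes had a median Spearman correlation of 0.94 with the mean log2 CPM of the other mature genes, and 19 of 24 exceeded 0.8. The same medians were 0.83 in P14 CB, 0.80 in P35 CB and 0.83 in P35 HC, where 15, 12 and 13 of 24 exceeded 0.8. The lowest mature gene lay at 0.26 in P14 CB, 0.09 in P14 HC, -0.54 in P35 CB and 0.37 in P35 HC. The other roles were set against the same mean of the mature genes and followed it less closely in most sets. The medians of the 4 transcription factors were 0.69 in P14 CB, 0.51 in P14 HC, 0.37 in P35 CB and 0.49 in P35 HC. Those of the 5 precursor genes were 0.83, 0.66, 0.31 and 0.66 in the same order, with single genes as low as -0.66 in P14 HC and -0.71 in P35 HC. For the 2 axon-glia genes they were 0.37, 0.06, 0.14 and 0.80. These are descriptions over 6 libraries, which share the genotype difference and their own depth and dissection.

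Other genes of the pathway were read from 4 longer lists. Of 26 further mature oligodendrocyte genes, 17 rose with age in WT HC and none fell, where 13.1% of all genes rose and 12.4% fell. In WT CB 16 rose and 3 fell, where 30.2% of all genes rose and 29.4% fell. Their median log2 fold change in CB was 0.77, unlike the -0.17 of the 24 mature members, of which 7 rose and 7 fell. At P14 18 were lower and 1 higher in WT HC than in CB, where 38.4% of all genes were lower and 37.6% higher. Between the genotypes they followed the members, with 25 of 26 lower in 16GsoT/T P14 CB and 18 of 24 higher in P14 HC, none of them called. In P35 CB 9 were called lower and 1 higher, where 18% of all genes were lower and 17.4% higher, among them *Enpp2*, a secreted lysophospholipase D that choroid plexus also makes (-1.36 ± 0.46), *Hapln2*, a link protein of the node (-1.04 ± 0.19), *Zfp488* (-0.65 ± 0.18) and *Carns1*, carnosine synthase (-0.63 ± 0.22). In P35 HC *Enpp2* alone was called, and it was higher (1.41 ± 0.19, edgeR adjusted p = 0.0053). Choroid plexus markers summed to 376 to 1812 CPM in 16GsoT/T and 84.2 to 98.2 in WT there, and to 142 to 387 and 21.9 to 2141 in P35 CB.

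Of 14 further precursor and early lineage genes, 10 fell with age in WT CB and 6 in WT HC, and none rose. The same shares of all genes stand beside the age counts of this paragraph and the P35 CB counts that follow. In 16GsoT/T P35 CB 2 of the 14 were called higher and 2 lower, led by *Tnr*, tenascin-R (0.62 ± 0.11), and *Vcan*, the proteoglycan versican (-0.37 ± 0.08). Of 19 tested genes of cholesterol synthesis, 12 fell with age in WT CB and none rose, and in WT HC 4 fell and 2 rose. Between the genotypes they were called only in P35 CB, with 4 higher and 5 lower, and 18 of 19 had a higher mean in P14 HC. Of 12 node and paranode genes of the axon, 3 were called higher and 2 lower in P35 CB, led by *Cntnap2*, the partner of contactin-2's protein product at the juxtaparanode (0.70 ± 0.08). In P14 HC *Kcna2*, a potassium channel of the same site, was called higher (0.87 ± 0.12, edgeR adjusted p = 0.026).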

How the data were processed

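Per the labels and the study's methods, total RNA from flash-frozen tissue was purified with Trizol and DNase I. The paper names a KAPA stranded mRNA kit and the labels name a TruSeq one. Per the submitters' processing notes, CASAVA 1.8.2, TopHat2 2.0.8, HTSeq 0.6.1, edgeR 3.2.4 and R 3.0.0 were used with the build NCBIM37. The annotation and the strand option are not given in the sources used here. The authors deposited raw read counts per gene symbol, without normalization, in one table per age. Reads that fit overlapping genes or aligned to several places were counted apart from the genes, so reads of near-identical copies may have been lost. Those not aligned uniquely made up 7.27% (A13) to 13.9% (library 6 of P14 CB) of reads. In P35 CB this share was 10.6% to 11.2% in WT and 7.90% to 8.64% in 16GsoT/T.

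Counts were analysed in R 4.3.3 with edgeR 4.0.16 (TMM, glmQLFit and glmQLFTest), after filterByExpr at a min.count of 10 and a min.total.count of 15. Genotypes were compared in the 6 libraries of a region and age. Age, region and interaction contrasts used fits of 4 groups over 12 libraries. Adjusted p-values (Benjamini-Hochberg) were taken over all genes tested. SE is the absolute log2 fold change divided by the square root of F. CPM in the text were scaled over 24 libraries, and lengths were summed exons of GENCODE vM1, available for 34 members. For 3 mice against 3, exact permutation of a single gene allows no p below 0.1. Nothing in the labels names litters, and p-values measure the spread between these mice. Because the homozygotes had homozygous parents, litter and parentage cannot be told apart from genotype in any genotype comparison. Other tools were DESeq2 1.42.0, DESeq2 size factors, edgeR's classic exact test, other filters, a joint fit over the 12 libraries of an age, the WT libraries alone for age and region, a further fold limit of 1.5, index design as a covariate in P35 HC, and leaving out each library. The test was first run and checked on simulated counts.

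All 35 members are accounted for, members called between genotypes are named, and of the longer lists at most 4 called genes per comparison are named. Of 196 other listed genes, 192 were matched, 5 by an older symbol. The members and lists were chosen with earlier results of these data known.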

Additional observations from a re-analysis of the deposited data

Results flagged for a closer look

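One result met the rule for a difference between groups. The genotype difference of *Gpr17*, the receptor of premyelinating oligodendrocytes, was more positive in CB at P35 than at P14 by 0.61 on the log2 scale (SE 0.20, edgeR adjusted p = 0.0405, interaction over 12 libraries). All 3 16GsoT/T libraries of P35 CB lay above all 3 WT libraries, while those of P14 CB overlapped. The adjusted p lay above 0.05 in 9 of 12 fits without 1 library, between 0.0535 and 0.117.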

How the results depend on the processing

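The number of members called depended on the settings as follows, with the main value first. In P35 CB, 6 members were called, and also 6 by DESeq2 with *Tspan2* in place of *Gjb1*. There were 3 with all 12 P35 libraries in one fit, 1 when a 1.5-fold change was also required, and 3 to 12 when one library was left out. Of all genes, 35.3% were called in the main fit, 26.8% by DESeq2, 24.3% in the joint fit and 26.9% to 33.2% without one library. In P14 HC, 1 was called, 2 by DESeq2 (*Enpp6* and *Cnp*) and 3 by the classic exact test (*Enpp6*, *Tspan2* and *Ugt8a*). There were 0 with all 12 P14 libraries in one fit, and 0 to 1 without one library. The shares of all genes in the same order were 0.814%, 2.62%, 4.1%, 1.99% and 0.0847% to 0.743%. In P14 CB, 0 were called and 0 to 9 without one library, where 0.506% and 0.204% to 1.12% of all genes were. For genotype by age in CB, 1 was called and 0 to 14 without one library. The shares of all genes were 18.6% and 12.8% to 22.2%. For genotype by region at P14, 0 were called, 1 by DESeq2 and 0 to 1 without one library. The shares of all genes were 0%, 0.549% and 0% to 0.136%. For genotype by region at P35, 0 were called, 1 with DESeq2 size factors and 1 by DESeq2 (*Gpr17* in both). There were 2 without a filter (*Gpr17* and *Lpar1*) and 0 to 1 without one library. The shares of all genes in the same order were 9.61%, 10.3%, 11.1%, 8.11% and 6.03% to 9.71%. The other 143 alternative counts, which include every one for P35 HC, for genotype by age in HC and for the WT comparisons, stayed within 1.5 times the main count. The causes were not tested beyond which library or setting was changed.

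Of the log2 fold changes of members in the alternatives, 2285 kept their direction and side of the threshold, 77 lost and 12 gained a call, and 9 changed sign, all when one library was left out. Over these fits in P14 CB, *Gpr17* ranged from -0.31 to 0.017, *Bcas1* from -0.31 to 0.026, *Ugt8a* from -0.40 to 0.028 and *Gal3st1* from -0.23 to 0.12. In P14 HC, *Pdgfra* ranged from -0.00445 to 0.14, *Olig2* from -0.00633 to 0.14, *Nkx6-2* from -0.082 to 0.49, *Aspa* from -0.00579 to 0.74 and *Qdpr* from -0.13 to 0.018. No paired analysis was possible because the labels give no replicate number shared between the genotypes. Outside the fits without one library, 12 calls were lost and 3 gained. The number of mice, 3 per group, limits the precision, and the part of depth was not tested.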
